A study of Mus musculus with 40 samples.

Results

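Transgenic and wild-type midbrain were compared at 15 mo, the older of the ages studied. The animals were male mice homozygous for an [A30P] alpha-synuclein transgene (aSyn Tg 15 mo) and male wild-type C57BL/6J littermates of the same age (Wt 15 mo), with 5 mice in each group. All samples whose labels give 15 months of age belong to the comparison, which is 20 of 40 samples, 10 of them input libraries (fragmented RNA set aside before immunoprecipitation) and 10 m6A immunoprecipitated libraries. RNA levels come from the 10 input libraries, of 19 used in all, and m6A from lists of peaks made over whole groups. The methods place the transgene under the Thy-1 promoter, which is active in many projection neurons, whereas the strain name printed there names the Th gene and a further mutation. In the text a library carries its group and its number in the deposited table, since the numbers of the aSyn Tg columns differ from those of the labels.

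Alpha-synuclein is a small presynaptic protein that binds membranes and synaptic vesicles, and it is the main component of the inclusions found in neurons in Parkinson's disease. N6-methyladenosine (m6A) is a methyl mark on adenosines within mRNA. A methyltransferase complex built around METTL3 and METTL14 writes it, FTO and ALKBH5 can remove it, and proteins with a YTH domain read it and act on the stability, transport and translation of the mRNA. The mark is known to gather around stop codons, in long exons and in 3' UTRs, within sequences whose core reads GGAC. Which transcripts differ between genotypes in the aged midbrain, and which of them differ in their m6A peaks, is the question of the comparison.

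The libraries held 3912667 to 5406387 reads in Wt 15 mo and 2161940 to 4921154 in aSyn Tg 15 mo, and 10485 genes whose mean scaled count reached 50 were tested. Library 5 of aSyn Tg 15 mo had the lowest total, and its 10 most abundant genes took 10.01% of reads, against 5.66% to 7.89% in the other 9 libraries. The tissue labels were checked against markers. Th ranged from 53.6 to 112 CPM (reads scaled to a common library size after TMM normalization) in aSyn Tg and from 58.5 to 106 CPM in Wt, and Slc6a3, the dopamine transporter, was likewise present in every library. Markers of forebrain neurons stood out in Wt 15 mo library 2, where Tbr1 reached 31.1 CPM and Neurod6 12.2 CPM, while both lay at or below 2.87 CPM in the other 9 libraries. In bulk tissue, fewer cells of a type and less RNA per cell cannot be told apart. The p-values measure the spread between these libraries.

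In the RNA, 23 genes differed between the genotypes (0.219% of genes tested), 20 of them higher in aSyn Tg (0.191%) and 3 lower (0.0286%), by edgeR's quasi-likelihood test with Benjamini-Hochberg adjustment (adjusted p up to 0.05, with a fold change of 1.2 or more). The groups did not overlap in any of the 23 genes, as was the case for 2.82% of all genes tested. At an unadjusted p under 0.05, 11.2% of genes differed, 627 higher and 549 lower. The called genes described here fall into Thy1, a small set of metabolic and neuronal genes with narrow spread, interferon-induced, complement and other immune genes, glial genes, and markers of serotonergic neurons.

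**Figure D1:**
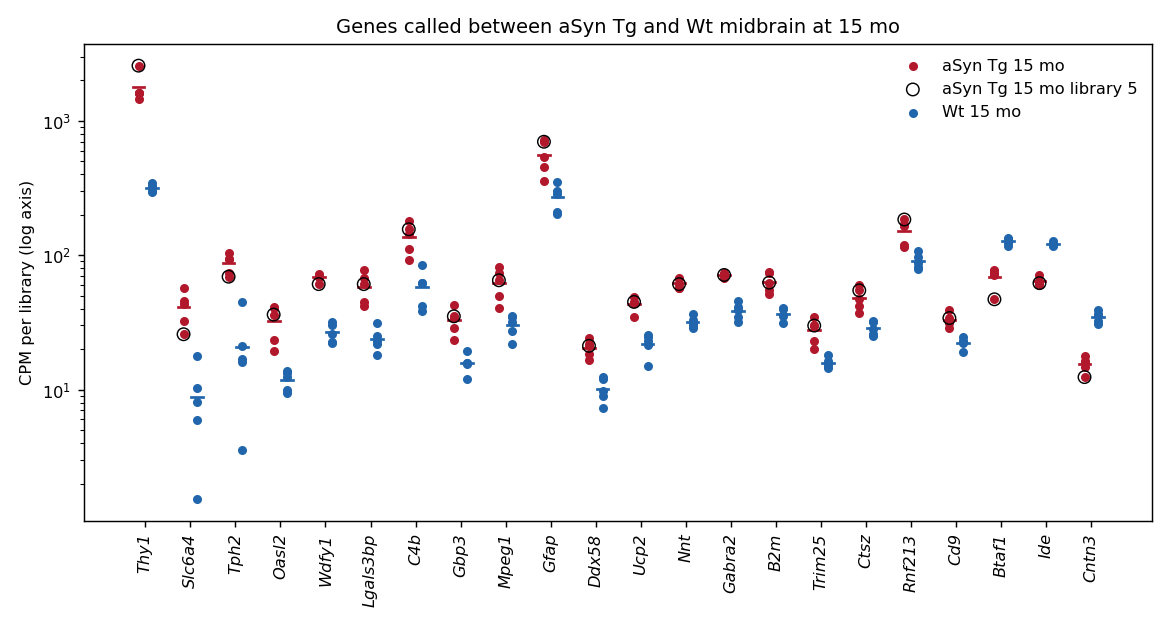
CPM (log axis) of 22 called genes in each of the 5 aSyn Tg 15 mo (red) and 5 Wt 15 mo libraries (blue), with short lines at the group means and aSyn Tg 15 mo library 5 circled. The groups are separate for every gene shown, with wide gaps for Thy1 and Ide and narrow ones for C4b and Gfap.

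Thy1, a surface glycoprotein of neurons, differed clearly between the genotypes. It lies at chr9:44043384-44048579 on the plus strand (mm10, GENCODE M21) and measured 1617, 1443, 1612, 2567 and 1595 CPM in aSyn Tg 15 mo libraries 2 to 6, against 325, 321, 299, 344 and 294 CPM in Wt 15 mo libraries 1 to 5. The lowest aSyn Tg library was still far above the highest Wt library, and library 5 was the highest of its group. The log2 fold change was 2.48 (SE 0.14, n = 5 per group, adjusted p = 3.87e-07). The count tables do not tell reads of a transgene cassette from reads of the endogenous Thy1 gene, and transgene sequence was not analysed here.

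Beta- and gamma-synuclein, both neuronal proteins, were not called. Sncb, beta-synuclein, ranged from 366 to 432 CPM in aSyn Tg and from 373 to 400 CPM in Wt, with a log2 fold change of 0.02 (SE 0.05, adjusted p = 0.926). Sncg, gamma-synuclein, measured 51.6 to 67.4 CPM in aSyn Tg and 35.4 to 66.0 CPM in Wt, with a log2 fold change of 0.38 (SE 0.15) and an adjusted p of 0.363. The groups overlapped for both genes.

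The 3 lower genes included neighbours on chromosome 19. Ide, the insulin-degrading enzyme, a protease of insulin and amyloid peptides, measured 64.5, 60.4, 70.8, 61.9 and 62.3 CPM in aSyn Tg and 118, 128, 116, 122 and 119 CPM in Wt. No library came near the other group, and the log2 fold change was -0.91 (SE 0.06, adjusted p = 1.44e-06). Btaf1, an ATPase that removes TATA-binding protein from DNA, measured 78.0, 70.7, 76.2, 46.9 and 73.0 CPM against 124, 135, 118, 128 and 131 CPM, with a log2 fold change of -0.85 (SE 0.10, adjusted p = 0.000915). Btaf1 (chr19:36926079-37012752, plus strand) ends 255990 bases before Ide (chr19:37268743-37337852, minus strand) begins. Copies of a stretch of chromosome 19 that holds Ide are known to vary among C57BL/6J mice, and the DNA of these mice was not analysed here. Cntn3, a contactin of the neuronal surface, measured 12.4 to 17.8 CPM in aSyn Tg and 30.7 to 39.3 CPM in Wt, with a log2 fold change of -1.14 (SE 0.10, adjusted p = 8.77e-05).

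A further set of genes was higher in aSyn Tg with little spread within either group. Wdfy1, an endosomal adaptor of Toll-like receptor signalling, measured 60.9 to 72.8 CPM in aSyn Tg and 22.1 to 31.9 CPM in Wt, with a log2 fold change of 1.38 (SE 0.10, adjusted p = 7.45e-06). Nnt, the transhydrogenase that supplies NADPH to mitochondria, measured 57.1 to 67.8 CPM against 28.9 to 36.4 CPM and rose by 0.96 on the log2 scale (SE 0.08, adjusted p = 4.63e-05). Gabra2, the alpha-2 subunit of GABA-A receptors, measured 73.5, 71.5, 72.6, 71.2 and 67.7 CPM against 40.9, 34.9, 31.9, 45.6 and 39.2 CPM and rose by 0.89 (SE 0.09, adjusted p = 0.000131). The C57BL/6J strain is known to carry a deletion in Nnt and another in an intron of Gabra2, and neither was typed here. Ucp2, a carrier of the inner mitochondrial membrane, rose by 0.96 (SE 0.13, adjusted p = 0.00608), from 14.9 to 25.5 CPM in Wt to 34.9 to 49.0 CPM in aSyn Tg. None of the genes in this paragraph or of the 3 lower genes lost its call in any of 22 alternative analyses.

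Interferon-induced genes formed the largest group of called genes that share a role. Interferons bind receptors that signal through STAT2 and IRF9, among other proteins, and switch on genes of antiviral defence. Of 46 listed genes 20 were tested, and 4 of these rose (against 0.191% of all genes tested), none fell. All 20 had a log2 fold change above 0, as did 52.1% of all genes tested. The median was 0.75 against 0.01 over all genes, and 18 of the 20 passed an unadjusted p under 0.05 in the higher direction, against 5.98% of genes tested. Oasl2, an oligoadenylate synthetase-like protein, measured 23.3, 40.8, 41.3, 36.1 and 19.3 CPM in aSyn Tg libraries 2 to 6 and 9.46, 9.96, 13.8, 12.5 and 13.2 CPM in Wt. The groups stayed apart, with libraries 2 and 6 closest to Wt, and the log2 fold change was 1.43 (SE 0.22, adjusted p = 0.0135). Lgals3bp, a secreted binding partner of galectin-3, measured 44.7, 77.2, 67.6, 60.9 and 41.6 CPM against 23.003, 21.9, 25.0, 18.2 and 31.0 CPM and rose by 1.28 (SE 0.18, adjusted p = 0.00729). Gbp3, a guanylate-binding GTPase, rose by 1.05 (SE 0.16, adjusted p = 0.0144). Ddx58, which encodes the RNA sensor RIG-I, rose by 1.00 (SE 0.16, adjusted p = 0.0152).

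Several members stayed just short of the threshold. Ifit1 had a log2 fold change of 1.33 (SE 0.26, adjusted p = 0.0704) and Ifit3 of 1.05 (SE 0.20, adjusted p = 0.0561), both RNA-binding proteins of the antiviral response, and in neither did the groups overlap. For Gbp7 the value was 0.89 (SE 0.17, adjusted p = 0.0537). The transcription factor genes Stat2 and Irf9 had log2 fold changes of 0.39 and 0.72, and neither was called. Of the remaining listed genes, 24 were in the table below the count limit, and all 24 had a higher mean CPM in aSyn Tg, with no overlap of the groups in 7 (1.66% of genes tested were higher without overlap). One of them, Irf7, an interferon regulatory factor, ranged from 7.89 to 17.0 CPM in aSyn Tg and from 4.01 to 4.35 CPM in Wt. Summed over all 44 listed genes in the table, tested or not, the list reached 492 to 782 CPM in aSyn Tg and 331 to 432 CPM in Wt. Trim25 and Rnf213, ubiquitin ligases of antiviral defence outside the list, rose by 0.78 (SE 0.14) and 0.72 (SE 0.13), each with an adjusted p of 0.0488.

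The promoters of the called genes were searched for GAAANNGAAA, the core of the interferon-stimulated response element, on both strands from 250 bases before to 50 bases after the RefSeq start (GRCm38.p6). It was present in 3.44% of 32851 promoter windows. Of the 20 higher genes 15 had a window, and 3 of the 15 held the motif, as did 1 of the 3 lower genes and 9 of 17 interferon-induced genes with a window (52.9%), against 3.38% of genes tested. The matches are shown because they carry the letters behind these counts. Capitals mark the motif, read 5' to 3' on the strand named. B2m lies at chr2:122147543-122147562 (plus), Ddx58 at chr4:40239809-40239828 (plus), Gbp3 at chr3:142559994-142560013 and at chr3:142560000-142560019 (minus, overlapping), and Btaf1 at chr19:36925923-36925942 (minus).
B2m: aacatGAAACTGAAAatggg
Ddx58: catagGAAATCGAAActgcc
Gbp3: aaataGAAACTGAAActgtg
Gbp3, second match: tctggGAAATAGAAActgaa
Btaf1, lower in aSyn Tg: tgggaGAAACGGAAAgaggt
A match is a description of the letters, and binding of a factor was not measured.

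Antigen presentation and complement genes were mostly higher as well. Of 9 tested genes of the MHC list (24 listed), 1 rose, B2m (against 0.191% of all genes tested). B2m, the light chain of class I molecules, measured 51.2, 74.2, 74.9, 62.4 and 54.6 CPM in aSyn Tg and 31.4, 35.4, 35.9, 39.7 and 40.5 CPM in Wt. Its log2 fold change was 0.79 (SE 0.12, adjusted p = 0.0099), and the list's median was 0.51. H2-D1, a class I heavy chain, did not overlap between groups but was not called (log2 fold change 0.73, SE 0.14, adjusted p = 0.0648). Of 5 tested complement genes (18 listed, median 0.79), 1 rose (against the same 0.191%), C4b, the complement component that is cleaved on activated surfaces. C4b measured 111, 179.9, 143, 156 and 92.7 CPM in aSyn Tg and 38.6, 62.0, 61.8, 41.6 and 84.4 CPM in Wt, so that the lowest aSyn Tg library was close to the highest Wt library. Its log2 fold change was 1.22 (SE 0.21, adjusted p = 0.0341). C1qa, C1qb and C1qc, the chains of C1q made by microglia, had log2 fold changes of 0.87, 0.79 and 0.64, none of them called (adjusted p = 0.0961, 0.0967 and 0.139).

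Genes linked to microglia were called on the list of disease-associated microglia and outside it. Of 11 tested genes of the list of disease-associated microglia (20 listed), 3 rose (against 0.191% of all genes tested), with a median of 0.51. They were Ctsz, Cd9 and B2m, which is also on the MHC list. Ctsz, the lysosomal protease cathepsin Z, rose by 0.73 (SE 0.13, adjusted p = 0.0404), and Cd9, a tetraspanin, by 0.56 (SE 0.10, adjusted p = 0.0469). Mpeg1, a pore-forming protein of macrophages outside the list, measured 49.3, 82.2, 74.1, 65.0 and 40.6 CPM against 21.98, 27.4, 35.0, 34.5 and 31.6 CPM and rose by 1.04 (SE 0.19, adjusted p = 0.0404). None of 16 tested general microglial and myeloid genes (27 listed) was called, but 14 had a log2 fold change above 0, 10 passed an unadjusted p under 0.05 in the higher direction (5.98% of genes tested) and the median was 0.43. Trem2, a lipid receptor of microglia, was at 0.95 (SE 0.24, adjusted p = 0.172). The markers of resting microglia Cx3cr1, P2ry12 and Tmem119 were at 0.16, -0.06 and 0.09 and Csf1r, the receptor that microglia need to survive, at 0.27, and the groups overlapped in all 4 genes. Of 49 lysosomal genes 1 rose (against 0.191% of all genes tested), the same Ctsz, with a median of 0.11.

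In astrocytes the called gene was Gfap, the intermediate filament that rises in reactive astrocytes. It measured 454, 714, 535, 697 and 358 CPM in aSyn Tg 15 mo libraries 2 to 6 and 203, 283, 351, 209 and 298 CPM in Wt. The highest Wt library, library 3, lay just under the lowest aSyn Tg library, library 6. The log2 fold change was 1.03 (SE 0.19, adjusted p = 0.0488). Of 20 general astrocyte genes only Gfap rose, with a median of 0.03, and Gja1, Slc1a2 and Aqp4 were at -0.12, -0.12 and 0.30, not called. Of 5 tested reactive astrocyte genes (20 listed) 1 rose (against 0.191% of all genes tested), again Gfap, with a median of 0.43. Serpina3n, a serine protease inhibitor of that list, was at 1.21 (SE 0.23, adjusted p = 0.0537).

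The aSyn Tg libraries had a similar order in most called immune and glial genes. Of the 9 called genes on the interferon, MHC, complement, disease-associated microglia and reactive astrocyte lists, 8 had libraries 2 and 6 as the lowest 2 of 5, and library 6 was the lowest of all for 8. How often this order occurs over all genes tested was not counted. Several calls of immune and glial genes were lost when a single library of either group was left out. Without library 5 the interferon list held 4 called genes and a median of 0.73, whereas the complement, reactive astrocyte and lysosome lists held none (medians 0.72, 0.42 and 0.08) and the list of disease-associated microglia 1 (median 0.40), and in all 14 genes were higher (0.13% of genes tested) and 3 lower (0.0279%). Oasl2, Gbp3 and Ddx58 lost the call without aSyn Tg 15 mo library 4 (adjusted p = 0.0539, 0.065 and 0.0708) or Wt 15 mo library 2 (0.0526, 0.0526 and 0.0573), and Ddx58 also without aSyn Tg 15 mo library 3 (0.0643). C4b, Ctsz, Mpeg1, Cd9, Trim25, Rnf213 and Gfap each lost it on leaving out any of 6 to 9 single libraries, with adjusted p up to 0.178. All directions held.

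**Figure D2:**
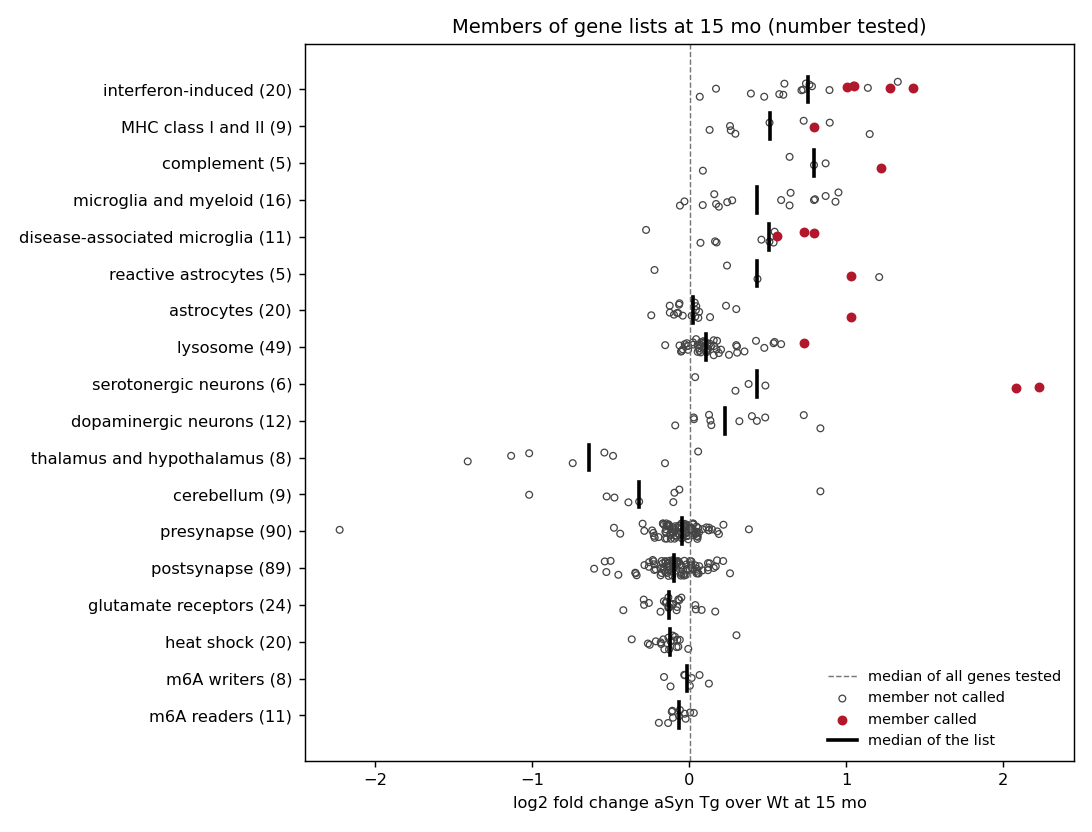
Log2 fold change of aSyn Tg over Wt at 15 mo for each tested member of 18 gene lists (number tested in parentheses), with called members in red, the others as open circles, list medians as black bars and the median of all genes tested as a dashed line. All 20 interferon-induced genes lie to the right of the line, and most thalamic and hypothalamic genes lie to the left.

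The serotonergic genes Slc6a4 and Tph2 were higher in aSyn Tg than in Wt by a large factor, with more spread within the groups than Thy1. Slc6a4, the serotonin transporter, measured 32.5, 45.7, 57.3, 25.8 and 43.4 CPM in aSyn Tg and 1.53, 5.97, 17.8, 10.3 and 8.14 CPM in Wt. Tph2, the rate-limiting enzyme of serotonin synthesis in the brain, measured 73.2, 94.2, 104, 69.1 and 94.0 CPM against 3.58, 16.9, 45.0, 21.2 and 16.1 CPM. The groups were separate for both genes, and in both Wt library 1 was the lowest and Wt library 3 the highest of its group, more than 10 times apart. The log2 fold changes were 2.23 (SE 0.35, adjusted p = 0.0152) and 2.08 (SE 0.35, adjusted p = 0.0277). Of 6 tested serotonergic genes (8 listed) these 2 rose (against 0.191% of all genes tested), with a median of 0.43. Both lost the call without any of aSyn Tg 15 mo libraries 3 and 4 and Wt 15 mo libraries 2, 4 and 5, with adjusted p of 0.0515 to 0.0708 for Slc6a4 and 0.078 to 0.113 for Tph2.

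Among lists of neighbouring tissue, medians were negative for thalamus and hypothalamus, cerebellum, and hippocampus and cortex (-0.13, 6 tested genes). The striatal list had a positive median of 0.17, with 6 of 7 tested genes above 0 and none called. Of these, 2 passed an unadjusted p under 0.05 in the higher direction (5.98% of genes tested). Of 8 tested thalamic and hypothalamic genes (15 listed) none was called, 6 passed an unadjusted p under 0.05 in the lower direction (5.24% of genes tested) and the median was -0.64. Summed over the 11 listed genes in the table, the level was 619 to 987 CPM in aSyn Tg and 784 to 1634 CPM in Wt, with the highest values in Wt libraries 1 and 2. Prkcd, a kinase of thalamic relay neurons, ranged from 22.6 to 97.5 CPM in aSyn Tg and from 29.4 to 248 CPM in Wt. The cerebellar list had a median of -0.32 with no call in 9 tested genes. Its defining markers Pcp2 and Gabra6 were absent from the gene counts. Cbln3, a further cerebellar marker, was low in both groups, at 1.03 to 2.63 CPM in aSyn Tg and 0.767 to 2.49 CPM in Wt. Of 12 tested dopaminergic genes none was called, with a median of 0.23. A log2 fold change above 0 was seen in 11 of them (52.1% of all genes tested). An unadjusted p under 0.05 in the higher direction was passed by 5 (5.98% of genes tested). Th was at 0.13 (SE 0.20, adjusted p = 0.841), Slc18a2 at 0.43 (SE 0.17, adjusted p = 0.355) and Ddc at 0.40 (SE 0.17, adjusted p = 0.395). Wt library 2, which held the forebrain markers, also had 1488 CPM of the hippocampal and cortical list, against 655 to 871 CPM in the other 9 libraries. The part of these regional markers in the difference of Slc6a4 and Tph2 was not tested.

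Few genes of the synapse were called in RNA, as over all genes tested (0.219% called). None of 90 presynaptic genes was called (median -0.05), nor any of 89 postsynaptic genes (median -0.10) or 24 glutamate receptor genes (median -0.13). At an unadjusted p under 0.05, 13 presynaptic genes were lower and 5 higher, and 17 postsynaptic genes were lower and 5 higher. Of the glutamate receptor genes 4 were lower and 1 higher, and of 48 synaptic adhesion genes 12 were lower and 2 higher. Over all genes tested 5.24% were lower and 5.98% higher. Slc17a7, the vesicular glutamate transporter of cortical neurons, had a log2 fold change of -2.23 (adjusted p = 0.258), with 232 CPM in Wt library 2. Gabra2 was the 1 gene called of 18 GABA-A and glycine receptor genes (0.191% of all genes tested were called higher). Cntn3 was the 1 of 48 synaptic adhesion genes (0.0286% of all genes tested were called lower). Summed over the synaptic adhesion list, the level was 8735 to 9044 CPM in aSyn Tg and 9146 to 9759 CPM in Wt. Heat shock genes had a median of -0.12, with 7 of 20 passing an unadjusted p under 0.05 in the lower direction (5.24% of genes tested) and none called.

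At 3 mo the same contrast called 95 genes (0.834% of genes tested), 71 higher (0.623%) and 24 lower (0.211%). Of the 22 genes called at 15 mo that were also tested at 3 mo, 4 were called at both ages and in the same direction. Among them were Thy1, Wdfy1 and Cntn3, with log2 fold changes at 3 mo of 2.53, 1.07 and -0.95. None of the immune, glial and serotonergic genes called at 15 mo was called at 3 mo, where Oasl2 was below the count limit and not tested. Their log2 fold changes there ran from -0.28 for Gfap (unadjusted p = 0.027, adjusted p = 0.336) to 0.40 for Gbp3 (unadjusted p = 0.022, adjusted p = 0.319), with 0.05 for Lgals3bp, -0.24 for C4b, 0.23 for Slc6a4 and 0.14 for Tph2 between them. The medians of the lists at 3 mo were 0.01 for interferon-induced, -0.02 for MHC, -0.24 for complement and -0.20 for reactive astrocyte genes. Slc6a4 ranged from 48.4 to 59.1 CPM in the 4 Wt 3 mo libraries, above every Wt 15 mo library. In the 5 aSyn Tg 3 mo libraries it ranged from 48.8 to 78.0 CPM. Tph2 ranged from 89.0 to 116 CPM in Wt 3 mo, also above every Wt 15 mo library, and from 85.2 to 144 CPM in aSyn Tg 3 mo. Levels of the ages were scaled separately. Gfap, in contrast, was at 211 to 271 CPM in Wt at 3 mo and reached its higher levels in aSyn Tg at 15 mo.

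Ide and Btaf1 had a mixed pattern in young Wt mice. At 3 mo, Ide measured 62.3, 95.2, 61.5 and 90.2 CPM in Wt libraries 2 to 5 and 62.3 to 69.8 CPM in aSyn Tg. The same Wt libraries, 3 and 5, were high for Btaf1, which measured 72.8, 102, 75.6 and 99.1 CPM, so that at 3 mo 2 Wt libraries lay near the aSyn Tg level and 2 above it. The test of the difference between ages, which pooled all 4 groups, gave a lowest adjusted p of 0.062 among the 23 genes, shared by Ide, Lgals3bp, Slc6a4, Tph2 and Gfap, and passed the threshold for none of them. Over all genes it called 1 (0.00915%), the pseudogene Pisd-ps1.

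**Figure D3:**
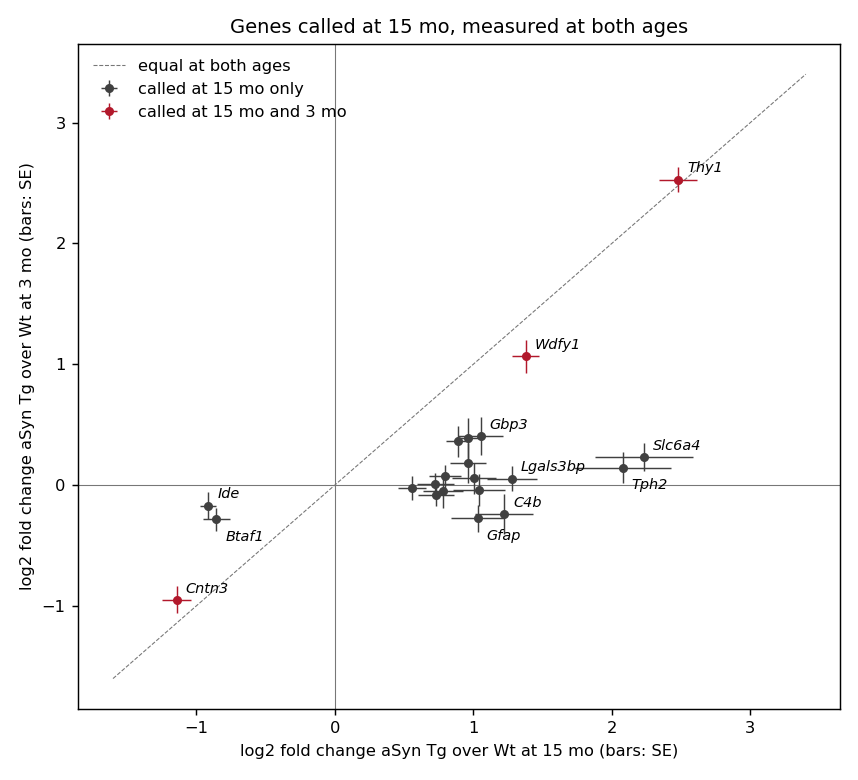
Log2 fold change of aSyn Tg over Wt at 15 mo (horizontal) and 3 mo (vertical) for 21 genes called at 15 mo and tested at both ages, with bars of 1 SE and the diagonal of equal values dashed. Thy1, Wdfy1 and Cntn3 (red, called at both ages) lie near the diagonal, while the immune, glial and serotonergic genes lie between -0.28 (Gfap) and 0.40 (Gbp3) at 3 mo.

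No gene that writes, removes or reads m6A was called in RNA. Mettl3, the catalytic subunit of the methyltransferase, measured 25.1, 23.1, 29.3, 27.8 and 25.4 CPM in aSyn Tg and 23.5, 24.4, 27.7, 19.6 and 23.8 CPM in Wt. Its groups overlapped, with a log2 fold change of 0.13 (SE 0.10, adjusted p = 0.67). Fto, a demethylase, was at 0.04 (SE 0.06, adjusted p = 0.8286) and Ythdf1, a reader that acts on translation, at -0.06 (SE 0.06, adjusted p = 0.727). This covers 8 tested writers (median -0.01), 2 demethylases and 11 readers (median -0.06). These numbers are too small to set apart from the 0.219% of all genes tested that were called.

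The m6A peaks were read from deposited lists made over all libraries of a group, so they carry no replicate error. The Wt 15 mo list held 14123 peaks on 7376 genes and the aSyn Tg 15 mo list 13027 peaks on 7115 genes. The latter list carries no group name and was taken for aSyn Tg 15 mo because the other 3 groups have named lists. Of the Wt peaks 2810 (19.9%) had no overlapping peak in aSyn Tg, and of the aSyn Tg peaks 1356 (10.4%) had none in Wt. Peaks seen in 1 genotype had a lower median fold enrichment than shared ones (immunoprecipitated over input reads), 3.64 against 5.28 in Wt and 4.13 against 5.34 in aSyn Tg. Of genes with a peak 6656 were shared, 720 had one in Wt alone and 459 in aSyn Tg alone. The numbers of peaks depend on the depth of the immunoprecipitated libraries, which is unknown here.

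The deposited list of differential peaks held 375 peaks, of which 313 on 294 genes passed the same limits (FDR 0.05, fold change 1.2). Of these, 77 peaks (24.6%) were hypermethylated in aSyn Tg (gained) and 236 (75.4%) hypomethylated (lost). Of the 7837 genes with a peak, 75 (0.957%) carried a gained and 222 (2.83%) a lost peak. Mobp, Secisbp2l and Sept3 carried both. Gained peaks had log2 fold changes of 0.27 to 1.38 with a median of 0.39, and lost peaks of -1.99 to -0.27 with a median of -0.56. At a fold change of at least 1.5, 8 gained and 108 lost peaks were left.

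The consensus lists gave a second view of the same libraries. Of the gained peaks 66 overlapped a peak in both lists, and 64 of these had the higher fold enrichment in aSyn Tg, with medians of 3.15 in Wt and 4.17 in aSyn Tg. Of the lost peaks 92 overlapped a peak in both, 85 of them lower in aSyn Tg, with medians of 4.23 in Wt and 3.06 in aSyn Tg. A further 103 lost peaks were found in the Wt list alone, with a median fold enrichment of 2.38, and 41 in neither list. The lists come from the same reads as the differential peaks and are no independent measurement.

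**Figure D4:**
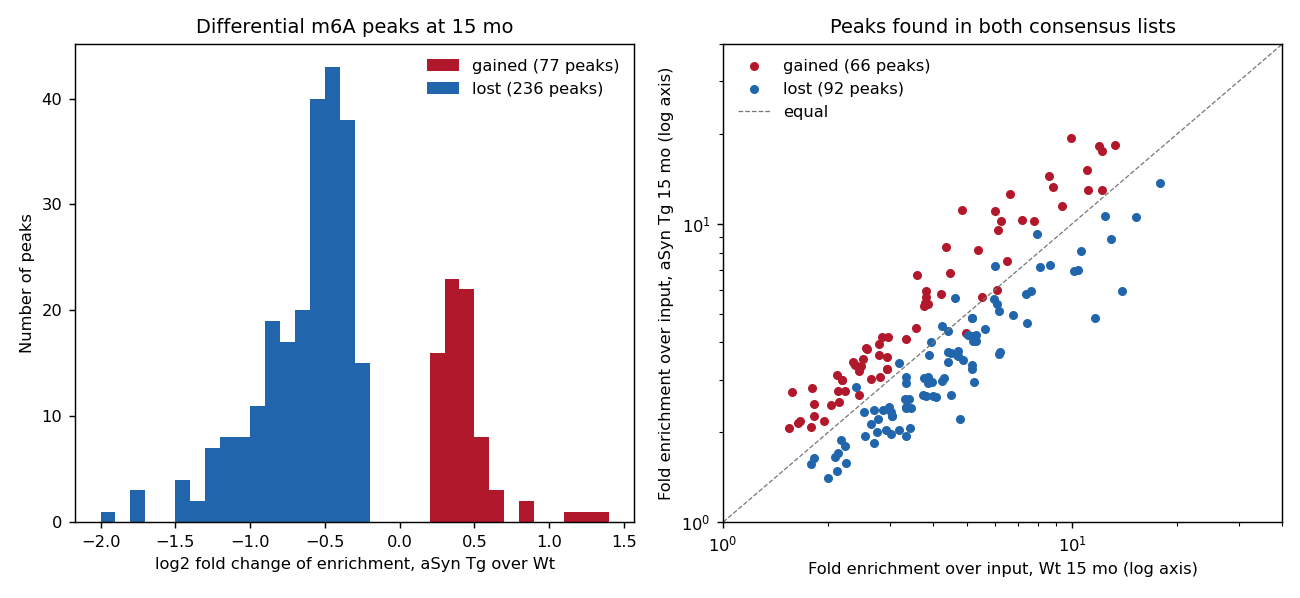
Left, numbers of the 77 gained and 236 lost m6A peaks by log2 fold change of enrichment, aSyn Tg over Wt at 15 mo. Right, fold enrichment over input in Wt 15 mo and aSyn Tg 15 mo (log axes) for the 66 gained and 92 lost peaks found in both consensus lists, with the line of equal values dashed, where 64 gained peaks lie above the line and 85 lost peaks below it.

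Thy1 had the largest gain. The Thy1 peak at chr9:44047413-44047682 lies around the stop codon and had a log2 fold change of 1.38, with a fold enrichment of 2.68 in aSyn Tg and no peak in the Wt list. A second Thy1 peak gained 0.54 and overlapped a peak in neither consensus list. The gene also showed the gain at 3 mo, with 1.53 for the peak at the stop codon. Thy1 was both called in RNA and listed with a differential peak, and the RNA of the transgene cannot be told apart from that of the endogenous gene here either.

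Other gained peaks lay on genes whose RNA was not called. Cox7a2l, a factor of respiratory supercomplexes, gained 0.87 in its 3' UTR (chr17:83502183-83502536), with a fold enrichment of 4.34 in Wt and 8.33 in aSyn Tg, at an RNA log2 fold change of -0.14 (adjusted p = 0.791). Vwc2, a secreted inhibitor of bone morphogenetic proteins, gained 0.81 in its coding sequence, from 6.62 to 12.6. Hpca, the neuronal calcium sensor hippocalcin, gained 0.61 and had a peak in the aSyn Tg list alone. The other large gains were on Gm9899 (1.2), Bms1 (0.65), Cyb5b (0.64), Lrrc41 (0.58) and Armcx2 (0.56).

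The largest loss was on Apln, which encodes the peptide hormone apelin, with -1.99 in the 3' UTR. C2cd4b followed with -1.79 (10.4 in the Wt list, none in aSyn Tg), on the strand opposite to M5C1000I18Rik (-1.39), so that reads of the pair may be shared and both values are uncertain. Stx6, a syntaxin of endosome to Golgi traffic, had -1.73, and Caln1, a calcium-binding protein of neurons, -1.70. Ipo9, an import receptor for histones and other nuclear proteins, had -1.45 in its coding sequence (3.15 in the Wt list, none in aSyn Tg). Ranbp3 (-1.44), Ptprn2 (-1.44), Shc3 (-1.40) and Adrbk1 (-1.33) completed the 10 largest. None of these genes was called in RNA, and C2cd4b and M5C1000I18Rik were not tested there. The lost peaks of Apln, Stx6, Caln1, Ranbp3 and Shc3 overlapped a peak in neither consensus list. Their fold enrichment over both groups together was low, at 1.44 to 1.87. Ptprn2 and Adrbk1 had a peak in the Wt list alone (2.18 and 2.44).

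Windows of 21 bases around the GGAC nearest to the centre of the peak show the sequence under such values. They are given for the single-block peaks with the largest gains and for a choice of those with large losses. The lost ones are Ipo9, Celsr3 (-1.15), Hdac5 (-1.15) and Kcnj9 (-1.08). Lost peaks of M5C1000I18Rik (-1.39), Tmem186 (-1.29) and Ormdl3 (-1.1) also held the motif and are not shown. They were read from mm10 (RefSeq GRCm38.p6) on the strand of the transcript, with the motif in capitals. The gained windows lie at chr9:44047567-44047587 (Thy1, plus), chr17:83502282-83502302 (Cox7a2l, minus), chr11:11116226-11116246 (Vwc2, plus) and chr4:129118622-129118642 (Hpca, minus). The lost windows lie at chr1:135386286-135386306 (Ipo9, minus), chr9:108826434-108826454 (Celsr3, plus), chr11:102202128-102202148 (Hdac5, minus) and chr1:172322197-172322217 (Kcnj9, minus).
Thy1, gained: agaaacggGGACcttgtccct
Cox7a2l, gained: gggcctcgGGACtcaggcggt
Vwc2, gained: aaggccgcGGACtggcaggtc
Hpca, gained: ttcctgaaGGACtgccccact
Ipo9, lost: atgtgggaGGACcaggaggaa
Celsr3, lost: caggactgGGACccaggggtt
Hdac5, lost: gaagaggaGGACtgcattcag
Kcnj9, lost: ctgaagcaGGACctggggaca
GGAC, searched on the transcript strand, was present in 86.1% of 36 gained and 74.7% of 83 lost single-block peaks, against 74.0% of Wt and 75.3% of aSyn Tg consensus peaks. Gained and lost peaks were wider (medians 405.5 and 330 bases against 211), and per kilobase the motif occurred 6.22 times in gained, 4.45 in lost, 6.59 in Wt and 6.86 in aSyn Tg peaks. The lost peaks of Apln, Ptprn2, Grm3, Gm15612 (-1.19) and Efr3b (-1.1) held no GGAC.

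Positions on the transcript were read for single-block peaks. Of 83 single-block lost peaks 9.6% had their centre within 200 bases of the stop codon, against 23% of Wt and 23.8% of aSyn Tg consensus peaks and 25.0% of 36 gained peaks. In turn 50.6% of lost peaks lay in coding sequence (39.6% and 39.7% of consensus peaks) and 25.3% in 3' UTRs (19.7% and 19.4%). Peaks of several blocks, which are 153 of the 236 lost ones, were not placed, because their block positions could not be read from the deposited lists, and the differences of these shares were not tested.

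**Figure D5:**
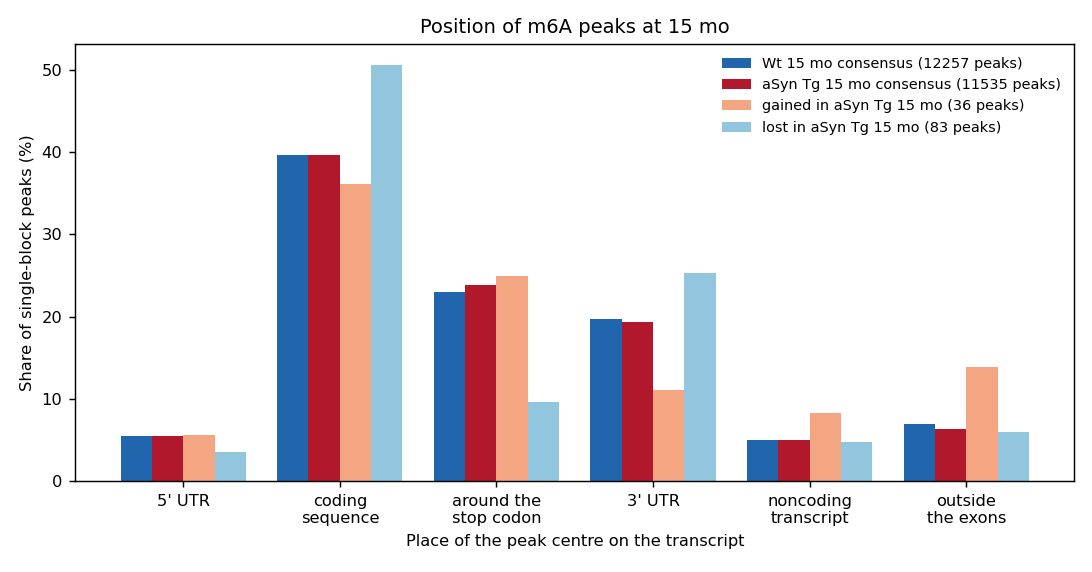
Share (%) of single-block m6A peaks at 15 mo by the place of the peak centre on the transcript, for the Wt (12257) and aSyn Tg consensus peaks (11535), the 36 gained and the 83 lost peaks. Around the stop codon the share is 9.6% for lost peaks and 23% to 25.0% for the others.

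On the presynaptic and postsynaptic lists lost peaks outnumbered gained ones, as they did over all genes. Of 67 presynaptic genes with a peak, 8 (11.9%, against 2.83% of all genes with a peak) carried a lost and 1 (1.49%, against 0.957%) a gained peak. Bsn (bassoon, a scaffold of the active zone) had a log2 fold change of -0.34, with a fold enrichment of 6.15 in Wt and 5.09 in aSyn Tg. Unc13a, which primes synaptic vesicles, had -0.55 (7.44 and 4.64), and its paralog Unc13c -0.59. The others were Ppfia3 (-0.94), Pip5k1c (-0.84, in neither consensus list), Gap43 (-0.54), Nrxn2 (-0.49) and Syngr1 (-0.35). None of the 9 was called in RNA, with Nrxn2 at 0.13 and Unc13a at -0.07.

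Of 76 postsynaptic genes with a peak, 9 (11.8%, against 2.83% of all genes with a peak) carried a lost and 3 (3.95%, against 0.957%) a gained peak. Dlg4, which encodes the scaffold PSD-95, had -0.68, and Shank3, a scaffold below it, carried lost peaks of -0.51 and -0.59. Ppp1r9a (neurabin, which ties spines to actin) had -1.03, with a peak in neither consensus list, and Ctnnd2 had -0.64. For Agap2 the fold enrichment was 12.9 in Wt and 8.87 in aSyn Tg (-0.28). The gained peaks were on Rasgrf1 (0.40), Pde4d (0.39) and Camk2g (0.30, from 11.0 to 15.1). Among glutamate receptors Gria2, the subunit that limits calcium entry through AMPA receptors, gained 0.42 and Grm3, a metabotropic receptor, had -1.23. These were 1 gained and 1 lost among 24 glutamate receptor genes with a peak (4.17% each). Synaptic adhesion genes with a peak numbered 41, of which 1 carried a lost peak (2.44%), the Nrxn2 named above, and none a gained one. The 15 GABA-A and glycine receptor genes with a peak carried neither.

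Lost peaks were also found on 7 of 31 genes of axonal transport with a peak (22.6%, against 2.83% of all genes with a peak), a count that holds both Nefl and Nefm. Trak1, which links mitochondria to kinesin, had -0.99 and Hap1 -0.97, both with a peak in neither consensus list. Mapk8ip3 (-0.59), Mapk8ip1 (-0.51) and Map6 (-0.41) followed. The peaks of Nefl (-0.28) and Nefm (-0.33) cover the same stretch of chromosome 14, in Nefl coding sequence and outside Nefm exons, and count as 1 site. Kif5a, a neuronal kinesin, gained 0.29. Of 48 chromatin regulators with a peak 7 (14.6%, against the same 2.83%) carried a lost and none a gained peak. Among them were Hdac5 (-1.15, in neither consensus list), Smarca4 (-0.76, also in neither), Kmt2d (-0.71), Arid1a (-0.51, from 12.4 to 10.6) and Chd3 with 3 peaks of -0.34 to -0.44. These genes too were not called in RNA.

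The immune genes with a peak were few in number. None of 13 interferon-induced genes, 10 microglial genes or 4 complement genes with a peak carried a gained or lost one, numbers too small to set apart from the 0.957% and 2.83% of all genes with a peak. Among 5 MHC genes with a peak, H2-D1 carried one that differed, with a lost peak of -1.24 on a transcript whose RNA log2 fold change was 0.73. Of the 23 genes called in RNA 9 had a consensus peak in at least 1 genotype. Slc6a4 and Gabra2 had one in aSyn Tg alone (fold enrichment 4.39 at the stop codon and 4.11 in the 3' UTR). The Trim25 peak at the stop codon had 41.2 in Wt and 19.4 in aSyn Tg without being listed as differential. Of the m6A machinery, Hnrnpa2b1, a reader, carried a lost peak (-0.43), Ythdf1 had a highest peak of 7.01 in Wt and 5.46 in aSyn Tg, Fto had 2.36 and 2.10, and Mettl3 had no peak in either list.

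Most genes called in RNA had no differential peak. Among tested genes with a gained peak the median RNA log2 fold change was -0.06 (71 genes) and among those with a lost peak 0.00 (211 genes), against 0.01 over all genes, and no gene with a lost peak was called. At 3 mo the differential list held 279 peaks, 275 gained and 4 lost. Of the 313 peaks at 15 mo 18 (5.8%) overlapped one of them, which is 6.5% of the 3 mo peaks. Of the 18 peaks, 5 were gained at both ages (among them Thy1, Apod and Sec62) and 13 went the other way, among them Nrxn2 (-0.49 at 15 mo and 0.47 at 3 mo), Ctnnd2 (-0.64 and 0.42), Arid1a (-0.51 and 0.42), Myrf (-0.56 and 0.43) and Nfasc (-0.63 and 0.46). The difference between ages was not tested for m6A.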

How the data were processed

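Input and m6A immunoprecipitated RNA of male Wt and aSyn Tg midbrain at 15 mo was analysed, with 5 mice per group, and 3 mo libraries (4 Wt, 5 aSyn Tg) served the comparison of ages. The methods name Cutadapt, STAR (mm10), featureCounts and DESeq2 with RUVseq (number of factors not given in the sources used here), whereas the labels name mm9 and a small RNA kit. The signal values the authors deposited are counts divided by a size factor of each library, in tables scaled separately. Dividing out each library's step gave back whole reads in 100% of 377574 values (tolerance 0.01), so the count test planned for raw counts was kept. The reads of Wt 15 mo library 2 came from a table of another comparison, because its size factor was too near 1. In addition, 38 library columns repeated libraries already used and were left out, and the fold changes and p-values of the authors' own RNA comparisons were not used.

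Per the deposited peak lists, the fold enrichment of a peak relates its immunoprecipitated reads to its input reads, as a ratio over all libraries of a group (MeTPeak and exomePeak). The log2 fold change and log10 FDR of differential peaks were computed by the authors with exomePeak and kept at an FDR up to 0.05 and a fold of 1.2, allowing 0.005 for the rounding of the log10 value. No depth is given for these libraries.

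Differences in RNA were tested in R 4.3.3 by the quasi-likelihood test of edgeR 4.0.16 after TMM scaling, on genes with a mean scaled count of 50 or more, with Benjamini-Hochberg adjusted p-values, and the difference between ages in a fit of all 4 groups. On simulated data with 200 changed genes of 10380, the 15 mo test found 79% of 1.5-fold and 90% of 2-fold changes with 9 false calls. The simulated counts were drawn independently for each gene, without variation that genes of a library share. These shares may therefore not hold for the real libraries. The alternatives were voom of limma 3.58.1, DESeq2 1.42.0, other filters, scalings and fold limits, 1 or 2 factors of unwanted variation, all groups together, a replicate block, and each library left out in turn. Peaks were handled in Python 3.11.15 with pandas 2.3.3, NumPy 2.4.6 and pysam 0.24.0, and plots in matplotlib 3.10.9. Peaks counted as shared at an overlap of 1 base and were placed on GENCODE M21 with 200 bases on either side of the stop codon.

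Named were the genes the paper names, the 10 largest rises and falls among called genes, up to 6 called members per list and direction, the 10 largest gained and lost peaks, up to 6 members of synaptic lists in each direction, and genes with both kinds of difference. Other genes, such as the members short of the threshold, the low Irf7, and the genes of the immune and chromatin lists, were chosen after their values were seen. Certain genes that the rule names are left out of the text and plots. The comparison and the 47 gene lists were chosen with earlier results of these data known. The protein and imaging measurements were not analysed here.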

Additional observations from a re-analysis of the deposited data

Results flagged for a closer look

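Each group of 5 libraries was searched for a value set apart from the rest by Dixon's criterion (gap over range above 0.71), over 78 values, and 6 were found. Chance alone sets apart about 1 in 20 groups.

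Of these, 4 came from aSyn Tg 15 mo library 5. It held 2161940 reads against 4646085 to 4921154 in the rest of its group, and its 10 most abundant genes took 10.01% of reads against 5.66% to 6.6%. Thy1 reached 2567 CPM there (others 1443 to 1617), while Btaf1 was at 46.9 CPM (others 70.7 to 78.0). Without it, 17 genes were called at 15 mo, among them Thy1 and Btaf1.

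The summed level of hippocampal and cortical genes stood apart in both groups. It was 871.0 CPM in aSyn Tg 15 mo library 2 (others 740.0 to 777.0) and 1488 CPM in Wt 15 mo library 2 (others 655.0 to 871.0), the library with the forebrain markers.

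Pisd-ps1, a pseudogene of phosphatidylserine decarboxylase, had a genotype effect that differed between the ages by 1.09 on the log2 scale (SE 0.17, adjusted p = 0.0152, edgeR's quasi-likelihood test of the interaction). At 3 mo it measured 13.7 to 18.0 CPM in aSyn Tg and 35.5 to 55.5 CPM in Wt, lower in 5 of 5 aSyn Tg libraries, and at 15 mo 32.7 to 42.3 CPM and 40.3 to 48.8 CPM. Its reads can be shared with the parent gene, which makes the value uncertain, and the call was lost without aSyn Tg 15 mo library 2 or 3 or aSyn Tg 3 mo library 4.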

How the results depend on the processing

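Of the 23 genes called at 15 mo, 11 kept the call in all 22 alternatives (among them Thy1, Ide, Wdfy1, Nnt, Cntn3, Gabra2, Btaf1, Ucp2, Lgals3bp and B2m), 12 lost it at least once, most often Cd9 (13 alternatives), and 0 changed direction. The number of calls moved more than the calls themselves. It was 88 with DESeq2 (66 higher, 22 lower), 16 with limma's voom, 41 without a filter on low counts, 45 and 254 with 1 and 2 factors of unwanted variation and 101 with all 4 groups in a single fit, and it ranged from 11 (without aSyn Tg 15 mo library 4 or Wt 15 mo library 2) to 42 (without Wt 15 mo library 3) as single libraries were left out. With the replicate block on the 4 numbers that both groups share it was 39, and in the same 8 libraries without a block 26, an alternative added after seeing the data. The numbers do not pair the mice by the labels, and same-numbered libraries correlated at 0.172, 0.319, 0.209 and -0.045. For numbers 2, 3 and 4 the same-numbered Wt library was the best match of the aSyn Tg library among the Wt libraries. For number 5 the best match was Wt 15 mo library 4 (0.276). Whether libraries of a number share a batch was not tested, and the main test used no block. At 3 mo the 95 calls became 63 with voom, 105 with DESeq2 and 28 to 166 as libraries were left out, and the 1 gene that differed between ages became 23 with DESeq2 and 0 to 20 as libraries were left out. Of the m6A peaks 8 gained and 108 lost ones remained at 1.5-fold, and peaks in 1 genotype alone numbered 2250 to 2992 in Wt and 1356 to 1528 in aSyn Tg over the definitions tried. The cause of these shifts was not tested. With the limit on counts, genes of low level were not tested, and the m6A values have no replicates.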
